A study of Mus musculus with 47 samples.

Results

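The glutathione and antioxidant enzymes are the genes whose symbol on the array is a glutathione transferase of the alpha, mu, pi, theta, omega, kappa or zeta class, begins with Gpx, Prdx or Txn, or is Gclc, Gclm, Gsr, Gss, Cat, Sod1 to Sod3, Hmox1 or Mgst1 to Mgst3. Txnip and Txnl4b were left out of the list. The choice used names only, and no measured value. The members were 69 of the 27745 gene symbols of the array, read by 112 of its 41174 probes. Of these, 60 members gave a signal above background in females and in males and were tested, and Gpx5, Gpx6, Gsta2, Gstm6, Gstm7, Gstt4, Txndc2, Txndc3 and Txndc8 did not and were not tested.

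Expression was measured in inguinal white adipose tissue (iWAT) of 47 mice in 8 groups. By the study's methods, this was the fat depot that runs under the skin of the lower back and the groin. Female and male mice, wild-type (WT) or Bcmo1-null, were given a control diet or a diet with 150 mg of β-carotene (BC) per kg for 14 weeks, from 5 to 19 weeks of age. There were 6 mice per group, but 5 in the group of BC-fed WT males. All mice shared a pelletized food that held 1500 IU vitamin A/kg, so the control groups were also supplied with vitamin A. All were labelled as C57/BL6;129Svj background. The study's methods give the null line as C57/BL6;129Svj-Bcmo1tm1Dnp and the WT controls as an F1 generation of the mixed background, so that the loss of Bcmo1 and other differences between these mice cannot be told apart. Bcmo1 encodes the enzyme that cleaves BC in the middle to form retinal, and the null mice lack it in the whole body. The comparisons ask how the diet affected WT and null mice, and how the genotypes differed on each diet.

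Glutathione is a small thiol peptide that keeps cell proteins reduced. Glutamate-cysteine ligase and glutathione synthetase make it, transferases attach it to lipid peroxidation products and other electrophiles, peroxidases use it to reduce peroxides, and glutathione reductase returns the oxidized form with NADPH. Peroxiredoxins reduce peroxides with electrons from thioredoxin, and superoxide dismutases and catalase remove superoxide and hydrogen peroxide. In adipocytes these enzymes clear reactive aldehydes such as 4-hydroxynonenal, a main substrate of the alpha class transferases. Many of them are targets of NRF2, a transcription factor that binds the antioxidant response element in promoters.

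Each value below is the log2 ratio of 1 mouse to a common reference pool made of all samples, from 1 array per mouse. It gives no level relative to another gene. A member is called where the p-value of limma is under 0.01, which the study used to count changed genes on the arrays, and the Benjamini-Hochberg adjusted p-value is over all probes kept. The members were bright: the median of their Cy5 signal over background was 172 in females against 30.0 over all genes, and 150 against 28.4 in males. Fat cells were present on every array, since Adipoq was at least 3087 and Fabp4 at least 6098 times background. The Bcmo1 probe was at most 2.31 times background on any array, was not kept, and does not check the genotype. Lymph node lymphocyte markers varied widely within groups, and 6 of the 24 female arrays had a median marker log2 ratio below -2. The mice lay on 12 slides. In whole tissue, fewer cells of a type and less RNA per cell cannot be told apart. The p-values set each difference against the spread between mice, each taken as independent. The study's methods state that mice shared cages, and the labels name no cage. A cage effect could therefore not be fitted, and it cannot be told apart from a difference between groups.

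The promoters of 5 members are shown with the core of the antioxidant response element, the site that NRF2 binds. The core played no part in the choice of members or in their roles. Gsta3 and Sod1 fell with BC in WT females and hold the core, Gsta1 fell and does not, and Gclm and Prdx1 hold it and were not called there. The sequences are RefSeq entries on GRCm38.p6, from 250 bases before to 50 bases after the gene start, written 5′ to 3′ on the strand of the gene. Capitals mark the core TGACNNNGC, searched on both strands. Positions are those of its first base from the left, relative to the start.
Gsta3, chr1:21240335-21240634, plus strand, core at -121: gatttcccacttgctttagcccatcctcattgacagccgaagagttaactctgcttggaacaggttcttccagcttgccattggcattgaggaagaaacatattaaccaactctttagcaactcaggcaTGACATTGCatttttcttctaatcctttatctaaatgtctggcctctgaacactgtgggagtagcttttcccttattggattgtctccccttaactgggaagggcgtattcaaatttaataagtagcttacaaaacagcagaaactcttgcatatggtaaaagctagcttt
Sod1, chr16:90220512-90220811, plus strand, core at -56 on the opposite strand: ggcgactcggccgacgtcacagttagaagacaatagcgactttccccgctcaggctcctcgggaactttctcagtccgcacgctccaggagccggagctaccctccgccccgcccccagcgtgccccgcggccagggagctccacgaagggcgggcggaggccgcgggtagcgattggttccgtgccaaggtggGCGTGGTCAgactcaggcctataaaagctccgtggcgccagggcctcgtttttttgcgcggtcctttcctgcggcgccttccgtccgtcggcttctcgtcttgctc
Gsta1, chr9:78230419-78230718, plus strand, no core: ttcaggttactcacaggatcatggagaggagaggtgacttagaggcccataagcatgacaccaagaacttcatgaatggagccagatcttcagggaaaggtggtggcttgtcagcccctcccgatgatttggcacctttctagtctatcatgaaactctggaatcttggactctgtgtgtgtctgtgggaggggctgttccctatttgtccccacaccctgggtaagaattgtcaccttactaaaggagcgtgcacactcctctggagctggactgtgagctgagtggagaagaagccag
Gclm, chr3:122245307-122245606, plus strand, core at -134 on the opposite strand: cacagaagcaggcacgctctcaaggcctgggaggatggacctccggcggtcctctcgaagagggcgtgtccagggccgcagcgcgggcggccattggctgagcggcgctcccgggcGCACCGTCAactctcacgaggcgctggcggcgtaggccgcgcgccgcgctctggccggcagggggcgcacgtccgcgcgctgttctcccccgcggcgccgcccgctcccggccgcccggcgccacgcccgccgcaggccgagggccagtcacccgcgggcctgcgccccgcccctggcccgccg
Prdx1, chr4:116685349-116685648, plus strand, core at -133 on the opposite strand: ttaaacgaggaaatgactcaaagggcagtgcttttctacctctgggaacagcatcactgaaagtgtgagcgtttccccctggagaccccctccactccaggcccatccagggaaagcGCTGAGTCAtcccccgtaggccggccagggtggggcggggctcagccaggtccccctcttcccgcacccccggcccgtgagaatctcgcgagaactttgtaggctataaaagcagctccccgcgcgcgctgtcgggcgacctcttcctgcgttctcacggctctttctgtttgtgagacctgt
Promoter entries were found for 57 of the 69 members, 77 entries in all. The core was in 16.9% of the member entries and in 12.4% of the 32851 entries of all genes. Among the 15 members with an entry that fell in WT females on the BC diet, 2 held it, Gsta3 and Sod1. A match is a description of these letters and not of a bound site, and outside this window nothing was searched.

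In WT females, BC supplementation went with lower expression of 19 of the 60 members, and none were higher. The 19 lower members stand beside 6.68% of all genes called lower, and the 0 higher ones beside 2.45% called higher. After adjustment 2 members passed, Gsta3 among them, where 1.02% of all genes did in either direction. Over all members the median log2 difference was -0.16 and 44 were below 0, while the median over all genes was -0.00. By role, 10 of 19 transferases were lower, 4 of 8 peroxiredoxins, 2 of 5 thioredoxins and reductases, 1 of 5 peroxidases, 1 of 14 thioredoxin domain proteins and 1 of the 5 genes of the superoxide dismutase, catalase and heme oxygenase group. Of the 4 genes of glutathione synthesis and recycling, 0 were called. On each of the 5 slides that held both groups, 17 of the 19 were lower in the BC mice, and Prdx6 and Sod1 were lower on 4 of the 5. The 19 were picked as lower on these same arrays, so this is no separate test, and other genes were not counted by slide.

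**Figure D1:**
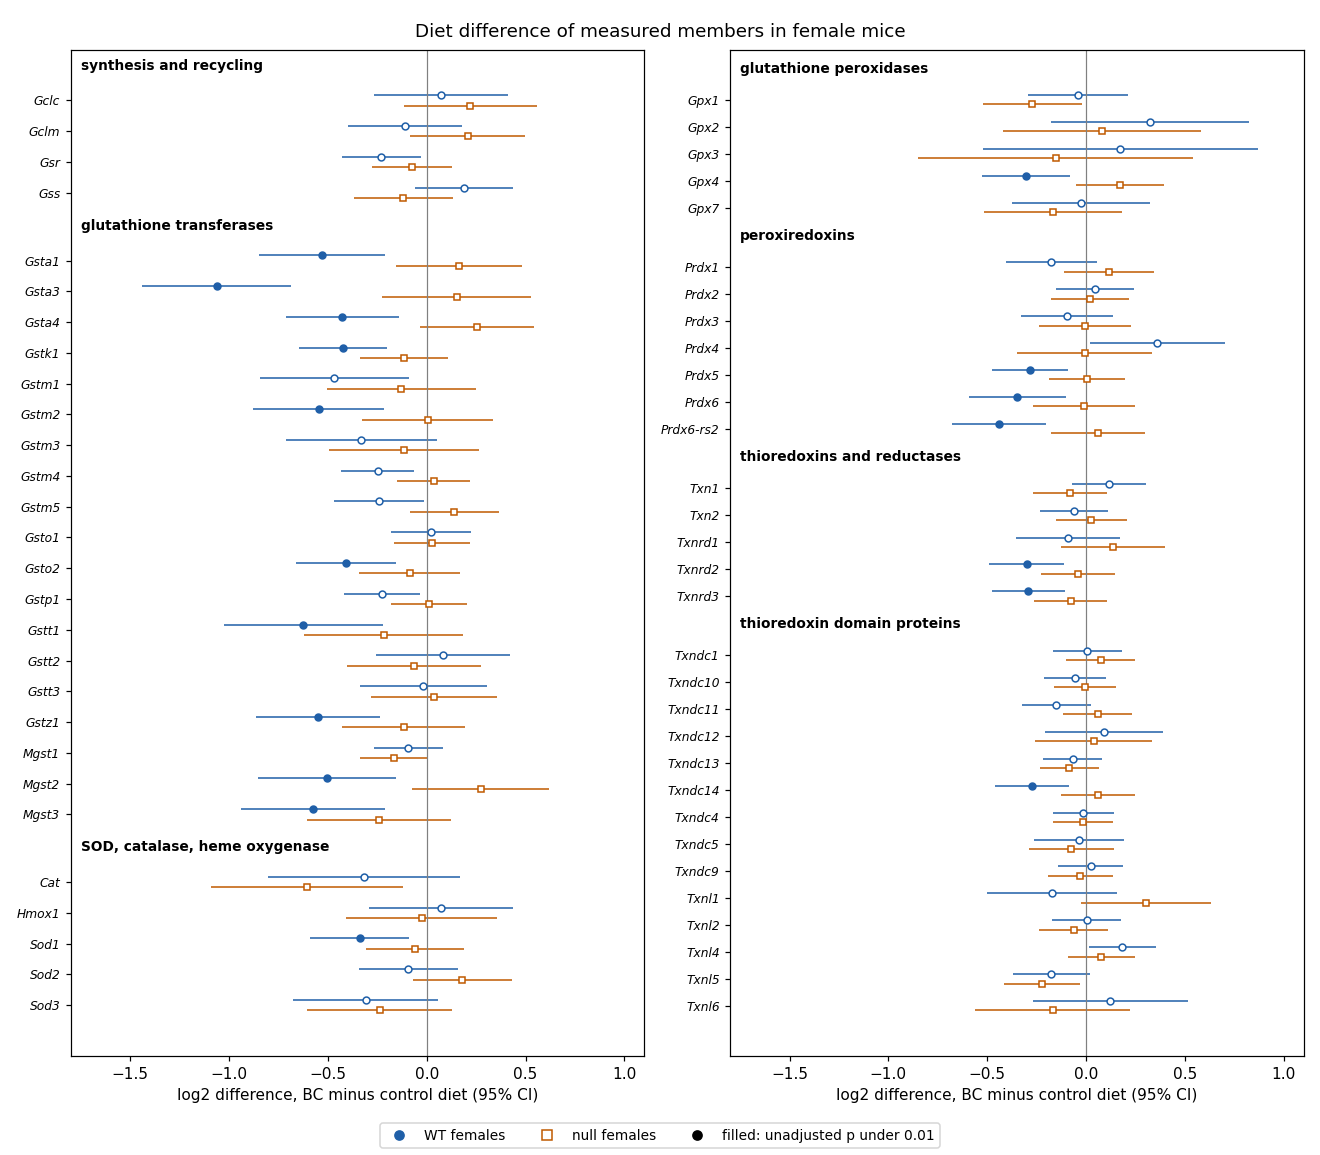
Log2 difference between the BC and the control diet (x axis) for measured members (y axis, by role) in WT females (blue circles) and Bcmo1-null females (orange squares), with 95% confidence intervals; filled symbols have an unadjusted p under 0.01. In WT females all filled symbols lie below 0, with Gsta3 farthest from 0 at -1.06, and in null females no symbol is filled.

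None of the genes that make or recycle glutathione passed the threshold. Gclc, the catalytic subunit of glutamate-cysteine ligase, differed by 0.07 (95% interval -0.26 to 0.41) and Gclm, its modifier subunit, by -0.11 (-0.40 to 0.18). Gss, which adds glycine in the last step, differed by 0.19 (-0.06 to 0.44). Gsr, the reductase, differed by -0.23 (-0.43 to -0.03), at an unadjusted p of 0.0282, and its other kept probes gave -0.25 and -0.28.

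All 3 measured alpha class transferases, which conjugate lipid aldehydes and other electrophiles, fell. Gsta3 lay between -0.82 and 0.18 in the WT control females (median -0.00) and between -1.82 and -0.98 in the WT BC females (median -1.09), and the groups did not overlap. It was 2.09-fold lower (log2 -1.06 ± 0.18 SE, limma, adjusted p = 0.0297). Groups without overlap were found for 2 members, Gsta3 and Gstm2, and for 2.24% of all genes. The probe lies at chr1:21250259-21250318 of mm8, the build of the array's annotation, and a second probe beside it, at chr1:21250162-21250221, gave -0.86. Gsta1 had medians of 0.10 and -0.48 and Gsta4, a transferase with high activity toward 4-hydroxynonenal, of 0.28 and -0.22, both with overlap. Their log2 differences were -0.53 ± 0.15 and -0.43 ± 0.14. The Gsta1 probe may also bind Gsta2, a near copy whose own probe gave no signal above background.

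Of the mu class, Gstm2 ran from -0.30 to 0.20 on the control diet and from -1.31 to -0.35 on the BC diet, a log2 difference of -0.55 ± 0.16. The other 4 measured mu genes, Gstm1, Gstm3, Gstm4 and Gstm5, were not called. Gstm1, a major liver transferase in the mouse, had medians of -0.31 and -0.45 and a difference of -0.47 (-0.84 to -0.09), and its other kept probe gave -0.13. The mu genes lie side by side on chromosome 3 and are alike in sequence, so their probes may share targets.

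Single members of 4 further transferase classes fell. Gstt1 (theta) went from a median of -0.24 to -0.76, a difference of -0.62 ± 0.19. Gstz1 (zeta), which also isomerizes maleylacetoacetate in tyrosine breakdown, went from -0.26 to -0.76, a difference of -0.55 ± 0.15. Gstk1 (kappa), a transferase of mitochondria and peroxisomes, lay between -0.60 and 0.05 on the control diet and between -0.81 and -0.55 on the BC diet, so that the groups overlapped by a narrow margin. It differed by -0.42 ± 0.11. Gsto2 (omega), a dehydroascorbate reductase, differed by -0.41 ± 0.12, while Gsto1 of the same class differed by 0.02 (-0.18 to 0.22). Gstp1 (pi) was not called by its brightest probe, at -0.23 (unadjusted p of 0.0234 in limma). Its other kept probe gave -0.28 (unadjusted p of 0.00297).

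Among the microsomal transferases, which sit in membranes and belong to another protein family, Mgst3 and Mgst2 were lower. Mgst3 had medians of -0.02 and -0.72 and differed by -0.58 ± 0.18. Mgst2, which can also form leukotriene C4, had medians of -0.07 and -0.49 and differed by -0.50 ± 0.17. Mgst1 had medians of 0.26 and 0.21, and its difference was -0.09 (-0.27 to 0.08).

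**Figure D2:**
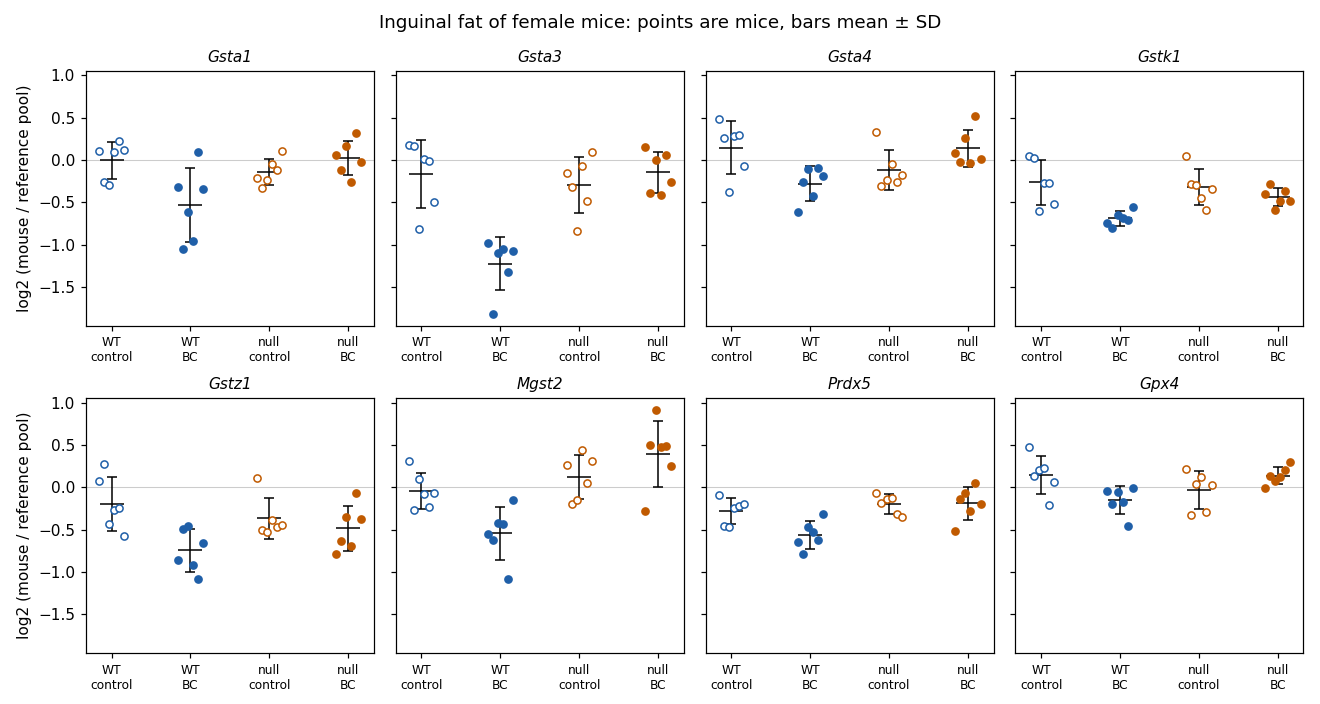
Log2 ratio to the reference pool (y axis) of 8 members in the 4 groups of female mice (x axis). Points are mice (open, control diet; filled, BC diet; blue, WT; orange, Bcmo1-null) and bars are mean ± SD. For Gsta3 the WT mice on the BC diet sit between -1.82 and -0.98, below every mouse of the other 3 groups.

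Gpx4, the peroxidase that reduces lipid hydroperoxides within membranes, had medians of 0.17 and -0.11 and differed by -0.30 ± 0.11. Gpx1, the common cytosolic form, differed by -0.04 (-0.29 to 0.21). Gpx3, the secreted form, spread from -0.73 to 1.24 in the BC mice alone and differed by 0.17 (-0.52 to 0.87).

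Among the peroxiredoxins that fell were Prdx5, Prdx6 and Prdx6-rs2. Prdx6 is the form that uses glutathione in place of thioredoxin. Prdx6-rs2 is a sequence-related copy of it whose probe may also bind Prdx6 transcripts, so their values are not independent. Prdx6-rs2 lay between -0.29 and 0.22 on the control diet and between -0.84 and -0.15 on the BC diet, with overlap. Prdx6-rs2 differed by -0.44 ± 0.11, Prdx6 by -0.35 ± 0.12 and Prdx5, found in mitochondria and peroxisomes, by -0.28 ± 0.09. Prdx1 (-0.18, -0.40 to 0.05), Prdx2 (0.04, -0.15 to 0.24) and Prdx3 (-0.10, -0.33 to 0.13) were not called. Prdx4, the form of the endoplasmic reticulum, was 0.36 (0.02 to 0.70) with an unadjusted p of 0.0397.

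Of the thioredoxin system, Txnrd2, the mitochondrial reductase, and Txnrd3 differed by -0.30 ± 0.09 and -0.29 ± 0.09. The Txnrd2 value comes from its brightest probe, and its other kept probes gave -0.01 and -0.06, with unadjusted p-values of 0.907 and 0.652 in limma. Txnrd1, the cytosolic reductase, differed by -0.09 (-0.36 to 0.17). Txndc14 (now Tmx2), a membrane protein with a thioredoxin domain, differed by -0.27 ± 0.09. Sod1, the cytosolic superoxide dismutase, ran from 0.06 to 0.76 on the control diet and from -0.19 to 0.30 on the BC diet, a difference of -0.34 ± 0.12. Its other kept probe gave -0.03 (unadjusted p of 0.79). Sod2 (-0.09, -0.34 to 0.16), Sod3 (-0.31, -0.68 to 0.06), Cat (-0.32, -0.80 to 0.17) and Hmox1 (0.07, -0.29 to 0.44) were not called.

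Of 22 members with several kept probes, the probes had the same sign for the diet in WT females in 16. The count of 19 moved with single mice. It was 9 without WT control female replicate 1, 11 without control replicate 4, 12 without BC replicate 1 and 10 without BC replicate 5. Of 10 mature adipocyte markers 3 were lower in the same comparison (Retn, Lep and Plin), and the median log2 ratio of that list ran from -0.30 to 0.71 in the control mice and from -1.005 to -0.03 in the BC mice. The median difference of the adipocyte markers was -0.53, and 9 were below 0. None of 13 lymphocyte, 16 mammary, 14 muscle, 11 macrophage or 7 brown and beige markers was called. Yet most were higher in the BC mice, with 13, 15, 13, 9 and 7 above 0 in that order. Their median log2 differences were 0.75, 0.37, 0.82, 0.26 and 0.35. The lymphocyte list ran from -2.74 to 0.21 and from -2.57 to 0.87. With the lymphocyte and mammary scores as covariates 7 members were called, all lower, and Gsta3 differed by -0.95. The share of all genes called in that fit was not counted, so the drop may not be particular to the members. The part of the adipocyte, muscle, macrophage and brown and beige lists in the result was not tested.

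In Bcmo1-null females 0 members were called for the diet, where 0.399% of all genes were. An unadjusted p under 0.05 in limma held for 399 of all 14546 genes and for 3 of the 60 members. These were Cat at -0.61 (-1.09 to -0.12), Txnl5 at -0.22 (-0.42 to -0.03) and Gpx1 at -0.27 (-0.52 to -0.02), and none passed adjustment in limma (adjusted p = 1.00 for each). Gsta3 lay between -0.83 and 0.09 on the control diet and between -0.41 and 0.15 on the BC diet, with a difference of 0.15 (-0.22 to 0.53). Counts of 1 to 3 appeared when single null mice were left out, namely control replicates 1, 4 and 5 with 1 each and BC replicate 2 with 3. Of 10 mature adipocyte markers 9 were below 0 in null females too, with a median difference of -0.26 and 0 called. Of 7 brown and beige markers 6 were above 0 and 1 was called higher. Of the lymphocyte, mammary, muscle and macrophage markers 0 were called. The part of these lists was not tested.

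The diet difference was lower in WT than in null females for 7 members, against 2.19% of all genes lower and 0.316% higher. Among them were Gsta3, Gsta4, Mgst2, Gsta1, Gpx4 and Prdx6-rs2. The difference of differences was -1.21 ± 0.26 for Gsta3, -0.78 ± 0.24 for Mgst2, -0.69 ± 0.22 for Gsta1 and -0.68 ± 0.20 for Gsta4. For Prdx6-rs2 and Gpx4 it was -0.50 ± 0.16 and -0.47 ± 0.15. None passed adjustment, the lowest adjusted p in limma being 0.25 for Gsta3. This test reuses the WT mice of the diet comparison. After median centring 16 members were lower, beside 6.09% of all genes. Without the 6 female arrays poor in lymphocyte markers, Gsta1, Gsta3 and Mgst2 kept their calls, and the calls lost included those of Gsta4, Gpx4 and Prdx6-rs2.

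Other genes of the same chemistry were counted in lists fixed alongside the members. In WT females on the BC diet, where 6.68% of all genes were lower, 3 of 18 other NRF2 targets were lower, among them Srxn1, which repairs overoxidized peroxiredoxins, at -0.66 ± 0.15, and Blvra, biliverdin reductase, at -0.46 ± 0.08. Of 14 genes that supply NADPH 2 were lower, G6pdx at -0.74 ± 0.19 and Taldo1 at -0.54 ± 0.18. Of 12 genes of cysteine supply and glutathione breakdown Cdo1, cysteine dioxygenase, and Cth, which forms cysteine from cystathionine, were both lower at -0.63. Of 5 glutaredoxin and glyoxalase genes 1 was lower, Hagh at -0.35 ± 0.12, and of 15 PPARG and lipogenic genes 3 were. NRF2 and its partners (10 genes) and selenoprotein synthesis (10 genes) had 0 called. Each of these lists had 0 called higher.

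On the control diet the female genotypes differed at 3 members, all higher in null mice, beside 2.06% of all genes higher and 2.65% lower. Gsto1, a transferase that also reduces dehydroascorbate and methylated arsenic, lay between -0.77 and -0.34 in WT and between -0.18 and 0.18 in null females without overlap. The difference was 0.50 ± 0.09 (limma, adjusted p = 0.00354), and it was the only member past adjustment, beside 1.92% of all genes. Txnl6 (now Nxnl1), a thioredoxin-like protein known from the retina, ran from -0.26 to -0.12 in WT and from 0.08 to 0.92 in null females, a difference of 0.61 ± 0.19. Groups without overlap were found for 2 members, Gsto1 and Txnl6 (3.33%), and for 2.08% of all genes. Txnl4 differed by 0.23 ± 0.08, but its 3 kept probes disagreed in sign (0.23, -0.13 and 0.55, and in control males 0.30, -0.26 and 0.63), so its direction depends on the probe. The count was 1 without null control replicate 6, and 5 without WT control replicate 3 or null control replicate 1. With the slide as a term in the fit, 1 of the 3 members kept its call and 2 lost it. Leaving out the female arrays poor in lymphocyte markers likewise kept 1 call and lost 2. After median centring of the arrays in place of loess 1 member was higher and 2 were lower, beside 0.99% and 3.24% of all genes.

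On the BC diet 9 members were higher in null than in WT females and 0 lower, beside 6.51% and 3.68% of all genes, and 7 passed adjustment where 5.38% of all genes did. This comparison and the diet comparison share the WT BC mice, so their low values enter both. Gsta3 was 2.12-fold higher in null mice (log2 1.08 ± 0.18, limma, adjusted p = 0.00082). Mgst2 lay between -1.09 and -0.15 in WT and between -0.28 and 0.92 in null mice and differed by 0.94 ± 0.17 (limma, adjusted p = 0.00145). The others were Gsta1 (0.56 ± 0.15), Gsto1 (0.51 ± 0.10), Gstm2, Gsta4 (0.42 ± 0.14), Gstm5 (0.40 ± 0.11), Prdx5 (0.37 ± 0.09) and Gstm4 (0.36 ± 0.09). On all slides that held both groups, 8 of the 9 had the same sign, and Gstm5 had it on 4 of 5. The 9 were picked on these same arrays, so this is no separate test. After median centring 19 members were higher, beside 7.49% of all genes. Brown and beige fat markers were lower in null females, 4 of 7 on the control diet and 7 of 7 on the BC diet. That list ran from 0.42 to 1.65 in the WT BC mice and from -0.82 to 0.51 in the null BC mice, and its part in these differences was not tested.

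In males the diet moved no member past the threshold. The count was 0 in WT males, beside 0.112% of all genes, and 0 in null males, beside 0.475%. In WT males 1 member had an unadjusted p under 0.05 in limma (Gsto2, 0.28, 0.04 to 0.53), beside 277 of 14322 genes. In null males 4 members did, beside 526 of 14322 genes. Gsta3 lay between -0.74 and 0.59 in control and between 0.02 and 1.02 in BC WT males, a difference of 0.18 (-0.30 to 0.66). In null males it differed by -0.07 (-0.53 to 0.39). The count in null males was 1 without control replicate 6 or BC replicate 3.

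The diet difference of WT females was set against that of WT males by the interaction of sex and diet. It was lower in females for 11 members and higher for 0, beside 5.84% and 3.39% of all genes, and 2 passed adjustment beside 1.1%. These were Gsta3 at -1.24 ± 0.30 and Gsto2 at -0.69 ± 0.17, with adjusted p-values of 0.0359 and 0.0399 in limma. Gsta1 (-0.66 ± 0.22), Gsta4 (-0.63 ± 0.22), Gstz1 (-0.60 ± 0.18), Gstk1 (-0.44 ± 0.15), Txnrd3 (-0.40 ± 0.13) and Txnrd2 (-0.36 ± 0.12) were among the others. The count was 4 without WT control female replicate 1, 5 without WT control male replicate 6 and 7 without WT BC male replicate 1. Replicate 6 held the lowest value of its group for Gsta3, at -0.74 where the next was 0.25.

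The genotypes were also compared in males. On the control diet 4 members were higher and 17 lower in null males, beside 17.1% and 11.8% of all genes, and 23 passed adjustment (31.6% of all genes). On the BC diet 6 were higher and 15 lower, beside 15.4% and 12% of all genes, and 23 passed adjustment (30.5%). The diets used different mice, and 15 of the 60 members tested were called in both, all in the same direction, 12 lower and 3 higher. Of all 14322 genes tested, 2928 (20.4%) were called in both in the same direction. Set against the calls of each diet, the 15 members stand beside 21 on either diet. The 2928 genes stand beside 4152 called on the control diet and 3927 on the BC diet. Of the transferases 8 of 19 were lower with the control diet and 9 of 19 with BC, and of the peroxiredoxins 4 of 8 and 1 of 8.

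Gstm1, a major mu class transferase, lay between 0.42 and 1.08 in WT and between -0.21 and 0.44 in null males on the control diet, a narrow overlap, and differed by -0.72 ± 0.15. On the BC diet it differed by -0.76 ± 0.15. Gstz1 was separate between genotypes on both diets, at -0.51 ± 0.09 and -0.52 ± 0.10. On the control diet 13.3% of members and 12.4% of all genes had groups without overlap. On the BC diet 16.7% and 11.8% did. Gstt1 and Gstt3, both of the theta class, differed by -0.46 ± 0.11 and -0.57 ± 0.13 on the control diet and by -0.53 ± 0.11 and -0.61 ± 0.14 on the BC diet. On the control diet Gstm2 differed by -0.51 ± 0.09, and Gpx7, a peroxidase of the endoplasmic reticulum, by -0.32 ± 0.08.

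Sod3, the extracellular superoxide dismutase, ran from 0.51 to 0.94 in WT and from -0.19 to 0.11 in null males on the control diet, without overlap, and differed by -0.74 ± 0.16. On the BC diet the groups overlapped and the difference was -0.48 ± 0.17. Cat (-0.56 ± 0.15), Gss (-0.42 ± 0.12), Prdx5 (-0.37 ± 0.09) and Prdx6 (-0.46 ± 0.14) were called on the control diet. On the BC diet Prdx3, the mitochondrial peroxiredoxin (0.52 ± 0.13), and Hmox1, which degrades heme (0.38 ± 0.09), were higher. Txndc1 (now Tmx1), a thioredoxin-like protein of the endoplasmic reticulum, was higher on the control diet (0.40 ± 0.07), and Txnl6 on the BC diet (0.67 ± 0.13). The other kept Txndc1 probe gave 0.10 on the control diet (unadjusted p of 0.34 in limma).

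The male counts depended on the normalization. After median centring of the arrays in place of loess, 2 members were higher and 1 lower on the control diet, beside 13.2% and 2.28% of all genes. On the BC diet 1 was higher and 3 were lower, beside 8.22% and 3.63%. On the control diet median centring moved the median difference of all genes from 0.01 to 0.14 and that of the members from -0.08 to 0.13, and Gstp1 turned from -0.21 to 0.05. Of the 21 members called there, 20 kept their sign, and Sod3 stayed at -0.70 and Gsto1 at 0.56. Median centring also moved the median of all genes to 0.13 for the diet in WT males, to 0.12 for sex, to -0.19 for the interaction of sex and diet and to -0.21 for that of sex and genotype. In the diet comparison of WT females it gave 0 higher and 27 lower members, beside 0.626% and 10.8% of all genes.

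**Figure D3:**
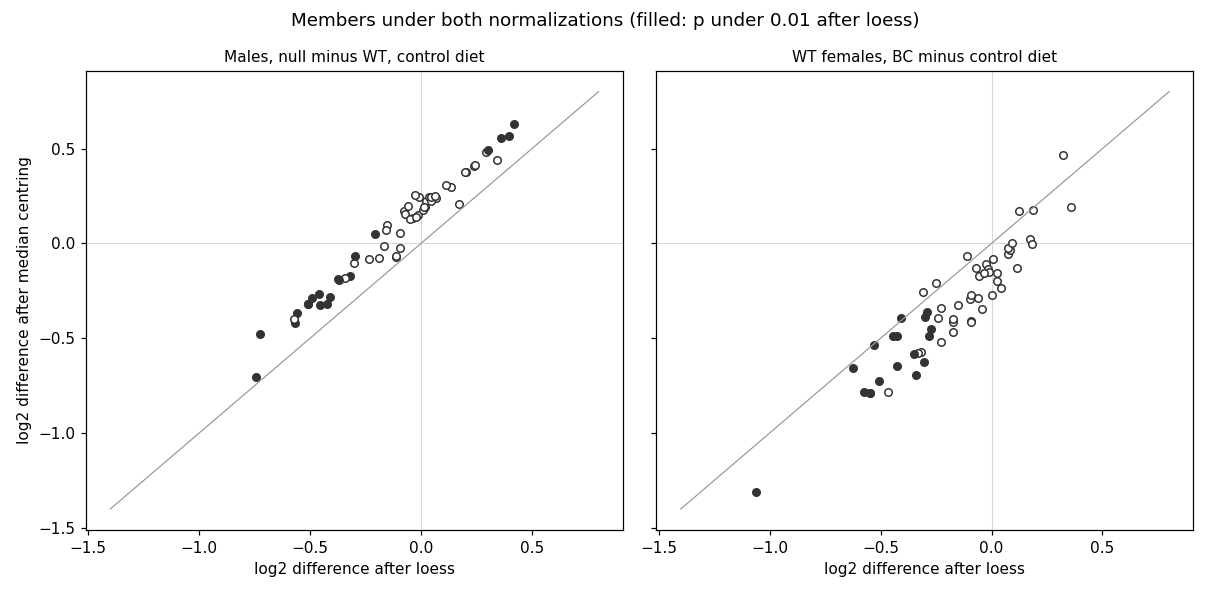
Log2 difference of measured members after loess (x axis) and after median centring of each array (y axis), for null minus WT males on the control diet (left) and for BC minus control diet in WT females (right); filled points have p under 0.01 after loess and the line marks equal values. In males the points lie above the line, and the member median moves from -0.08 to 0.13, while in WT females most lie below it and the median moves from -0.16 to -0.34.

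Cell markers also differed between the male genotypes. All 12 lymphocyte markers were higher in null males on both diets, with a list median between 0.55 and 1.53 in null and between -3.11 and 0.35 in WT control males. Of 11 macrophage markers 8 were higher on each diet, 4 of 7 brown and beige markers were higher on the control diet, and of 10 adipocyte markers 4 were lower with the control diet and 3 with BC. The adipocyte list lay between 0.47 and 0.76 in WT control males and between -0.06 and 0.28 in null control males. With the lymphocyte and mammary scores as covariates 6 members were called on each diet, 3 higher and 3 lower on the control diet. The share of all genes called in that fit was not counted. Since the lymphocyte list did not overlap between the control genotypes, its part and that of genotype cannot be told apart there, and the part of the other lists was not tested.

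Gsto1 and Mgst2 are described further because of these results, a choice made after their values were seen. Gsto1 was the 1 member called in all 4 genotype comparisons, which use 4 separate pairs of groups. The share of all genes called in 3 or 4 of these comparisons was not counted. On the control diet 2 members were called in both sexes in the same direction, beside 2.36% of 14235 genes. With BC 2 members were, beside 1.66%, so both counts were of few members. Gsto1 was higher in null mice by 0.50 and 0.51 in females and by 0.36 ± 0.09 and 0.48 ± 0.10 in males, control diet first. In WT mice it lay between -0.78 and -0.11 in all 4 groups, and in null mice between -0.24 and 0.27. The WT BC females had 5 values, since 1 spot was set aside. After median centring its differences were 0.43 in control females and 0.41 in BC males, with unadjusted p-values in limma of 0.0124 and 0.0441.

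Mgst2 was higher in null mice in 3 of the 4 comparisons, by 0.94 in BC females, 0.42 ± 0.11 in control males and 0.59 ± 0.11 in BC males. In control females it differed by 0.16 (-0.19 to 0.51). In BC males WT mice lay between -0.60 and -0.19 and null mice between 0.14 and 0.32, without overlap, as held for 11.8% of all genes. Cbr1, carbonyl reductase and 1 of the 18 other NRF2 targets, was lower in null mice in all 4 comparisons, by -0.95 and -1.05 in females and -1.17 and -1.25 in males, and was picked after its values were seen. In BC females Blvra (0.47 ± 0.08) and Srxn1 (0.59 ± 0.15) were higher in null mice, and in males 6 of the 18 were lower on each diet and 0 higher.

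**Figure D4:**
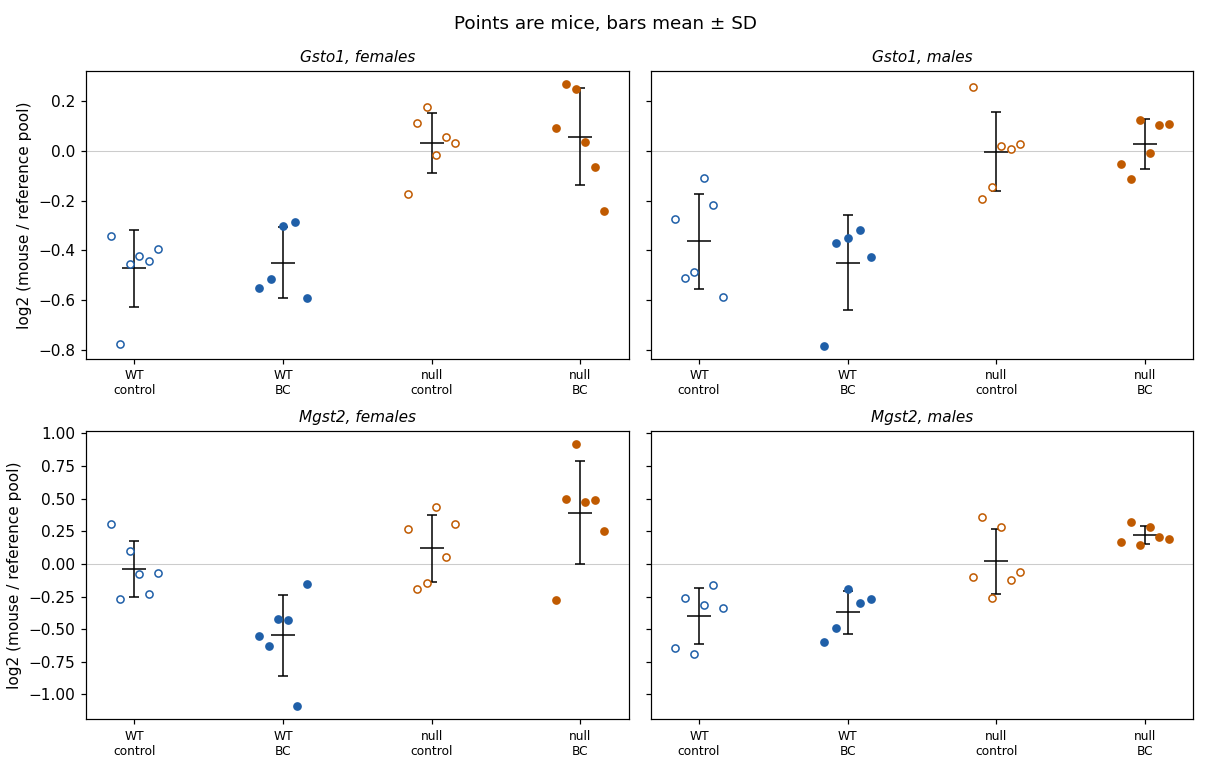
Log2 ratio to the reference pool (y axis) of Gsto1 (top) and Mgst2 (bottom) in the 4 groups (x axis) of females (left) and males (right). Points are mice (open, control diet; filled, BC diet; blue, WT; orange, Bcmo1-null), bars mean ± SD. Gsto1 lies between -0.78 and -0.11 in WT and between -0.24 and 0.27 in null mice.

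WT females and WT males on the control diet differed at 19 members, 6 higher and 13 lower in females, beside 14.8% and 11.4% of all genes, and 21 passed adjustment beside 27.8%. Gclc lay between 0.31 and 0.69 in females and between -0.89 and -0.31 in males, and was 2.18-fold higher in females (log2 1.12 ± 0.14). Of the 4 genes of glutathione synthesis and recycling no other was called at an unadjusted p under 0.01. After adjustment 1 was higher and 1 lower in females. Sod3 was 2.23-fold lower in females (-1.16 ± 0.17), with values from -0.65 to 0.03 against 0.51 to 0.94. Gstt1 (-0.92 ± 0.16), Gstm1 (-0.91 ± 0.17) and Gstm3 (-0.81 ± 0.16) were lower without overlap. Groups without overlap were found for 12 members (20%) and for 13.1% of all genes. Gstk1 (-0.52 ± 0.10) and Prdx5 (-0.42 ± 0.09) were lower and Txndc1 (0.35 ± 0.08) higher.

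Between the sexes 14 of 16 mammary markers were higher in females, with a list median from 0.22 to 1.05 in WT control females and from -3.21 to -2.24 in WT control males. Of 14 muscle markers 11, and of 10 adipocyte markers 6, were lower in females, and 6 of 7 brown and beige markers were higher. The mammary list separated the sexes, so that its part and that of sex cannot be told apart, and a fit with it as a covariate says nothing of the sex difference. The part of the muscle, adipocyte and brown fat lists was not tested. Median centring gave 3 higher and 4 lower, beside 11.0% and 4.68% of all genes. A single slide held both groups, and 18 of the 19 had the same sign on it. The 19 were picked on arrays that include these, so this is no separate test.

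The genotype difference itself differed between the sexes on the control diet at 8 members, 6 higher and 2 lower in females, beside 3.42% and 5.92% of all genes. Sod3 passed adjustment (0.97 ± 0.24, limma, adjusted p = 0.0363), as 1.59% of all genes did. Null and WT females overlapped for Sod3, at -0.49 to 0.13 and -0.65 to 0.03, while in males the genotypes were apart. Gstm1 (0.65 ± 0.24), Gss (0.53 ± 0.18) and Prdx5 (0.45 ± 0.13) were higher in this difference and Gclc (-0.67 ± 0.20) and Txndc1 (-0.38 ± 0.11) lower. The Txndc1 value rests on its brightest probe, and its other kept probe gave a genotype difference of 0.02 in females and 0.10 in males. The count was 5 without null control female replicate 2, and median centring gave 1 higher and 1 lower, beside 0.407% and 7.45% of all genes.

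**Figure D5:**
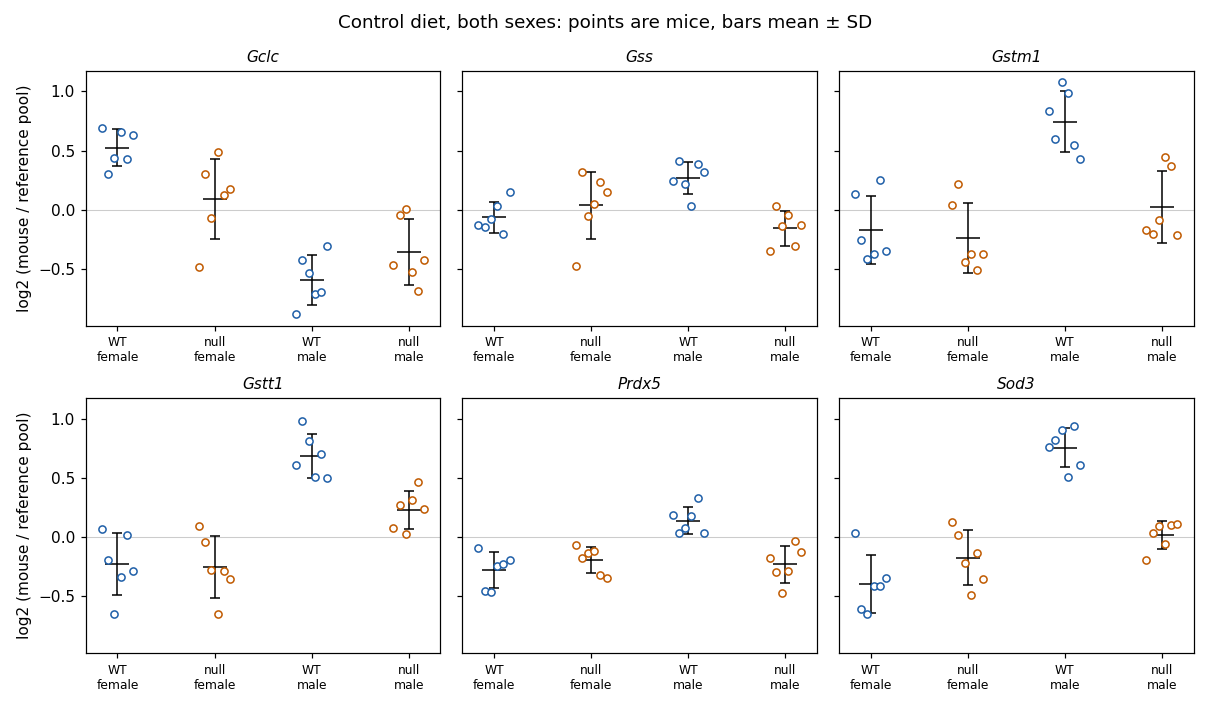
Log2 ratio to the reference pool (y axis) of 6 members in the control diet groups of both sexes (x axis). Points are mice (blue, WT; orange, Bcmo1-null), bars mean ± SD. Gclc is highest in WT females (0.31 to 0.69), and Sod3 is highest in WT males (0.51 to 0.94).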

How the data were processed

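The authors labelled RNA of each of 47 mice with Cy5 and a pool of all samples with Cy3, hybridized both to 1 array per mouse without dye swaps, and measured the spots with Feature Extraction, for which the headers name version 9.5.3.1. The deposited files give the intensity of each spot and its background, and a log10 ratio (Cy5 over Cy3, both processed), which the series values repeat.

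Median intensities were corrected with normexp (offset 50) and normalized by loess within arrays. Faulty spots were set aside and spots of a probe averaged. Probes with mean Cy5 and Cy3 of at least 2 times background were kept (20811 in females, 20437 in males, 20718 over all arrays), and the brightest kept probe stands for a gene. Group means were fitted with limma 3.58.1 (R 4.3.3, data.table version 1.17.8) over the females, the males or all arrays, for 12 contrasts. Analysis was tested on simulated data.

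A member's values are not reported here, though the counts include it. Members and lists were chosen with earlier results of these data known. Values are given for members with p under 0.01 (at most 8 per contrast outside the female diet contrasts) and for a fixed list of main enzymes. The number of mice limits the precision. Alternatives were another background correction, normalization, filter, probe rule, test and samples, the slide, the replicate number and cell scores as terms, and each mouse left out.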

Additional observations from a re-analysis of the deposited data

Results flagged for a closer look

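Some mice lay apart from the rest of their group, by Dixon's ratio above its 95% critical value. This held for 23 of 272 pairs of a named member and a group, 8.46%, where chance gives about 1 in 20, and 5 of the 23 were in replicate 6 of the WT control males. In null control females this was Gstz1 at 0.11 in replicate 1 (nearest mouse -0.39). Among the WT control females these were Prdx6 at -0.61 in replicate 5 (nearest mouse 0.092), Txnrd2 at 0.28 in replicate 1 (nearest mouse -0.088), Gsto1 at -0.77 in replicate 2 (nearest mouse -0.45) and Txnl2 at 0.036 in replicate 4 (nearest mouse -0.11). In WT BC females these were Prdx6-rs2 at -0.84 in replicate 2 (nearest mouse -0.39), Gclm at 0.78 in replicate 5 (nearest mouse -0.12) and Prdx2 at 0.60 in replicate 5 (nearest mouse 0.023). Among the null BC females this was Txndc14 at -0.0049 in replicate 1 (nearest mouse 0.10). In WT BC males these were Gpx7 at 0.074 in replicate 3 (nearest mouse 0.24), Gsto1 at -0.78 in replicate 1 (nearest mouse -0.42) and Prdx5 at -0.32 in replicate 1 (nearest mouse 0.044). Among the WT control males these were Gpx7 at -0.024 in replicate 6 (nearest mouse 0.18), Txndc1 at -0.52 in replicate 2 (nearest mouse -0.24), Gstk1 at -0.11 in replicate 6 (nearest mouse 0.25), Gsta1 at -0.46 in replicate 6 (nearest mouse 0.15), Gsta3 at -0.74 in replicate 6 (nearest mouse 0.25), Gsto2 at -0.32 in replicate 6 (nearest mouse 0.044) and Txnrd3 at 0.60 in replicate 2 (nearest mouse 0.30). In null BC males these were Prdx3 at -0.25 in replicate 3 (nearest mouse -0.017), Gstk1 at 0.20 in replicate 1 (nearest mouse -0.095), Txnrd3 at 0.54 in replicate 1 (nearest mouse 0.14) and Txnl5 at -0.16 in replicate 5 (nearest mouse -0.038).

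The diet difference of WT females stood below that of null females by the interaction of genotype and diet for Gsta3 (-1.21), Mgst2 (-0.78), Gsta1 (-0.69), Gsta4 (-0.68), Prdx6-rs2 (-0.50) and Gpx4 (-0.47), none past adjustment. Against WT males it was lower for Gsta3 (-1.24), Gsto2 (-0.69), Gsta1 (-0.66), Gsta4 (-0.63), Gstz1 (-0.60), Gstk1 (-0.44), Gstm5 (-0.41), Txnrd3 (-0.40), Txnrd2 (-0.36) and Txndc14 (-0.32), of which Gsta3 and Gsto2 passed adjustment. The genotype difference on the control diet, females minus males, was 0.97 for Sod3, 0.65 for Gstm1, 0.53 for Gss, 0.45 for Prdx5, 0.36 for Txnl5, 0.33 for Txnl2, -0.38 for Txndc1 and -0.67 for Gclc, and Sod3 passed adjustment. The direction for Txnl2 depends on the probe. Its 2 kept probes both gave a genotype difference of 0.17 in females, but -0.16 and 0.35 in males. For Txndc1 the brightest probe gave 0.40 in males and the other kept probe 0.10.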

How the results depend on the processing

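Counts of members called stayed within 1.5 times of those reported except as follows. Median centring gave 16 for the female interaction, 19 for the female genotypes on BC, 3 and 4 for the male genotypes on control and BC, 7 for sex and 2 for sex by genotype. The lymphocyte and mammary scores as covariates gave 7 for the diet in WT females, 1 in null females, 8 for the female genotypes on control (3 higher, 5 lower), 6 and 6 for the male genotypes, 5 for sex, 3 for sex by diet and 2 for sex by genotype. In the sex comparison, where the mammary score stands in for sex, they turned Gstt1 to 0.0067 and Prdx5 to 0.050. The slide as a block gave 11 for the male genotypes on control and 5 for sex by genotype. For the diet in WT females the methods' t-test gave 9, only the 2 groups compared 10, and 11 were called without the 6 lymphocyte-poor female arrays, an alternative chosen after seeing the data. For the diet in null males, no background correction and the deposited ratios each gave 1. The cause was not tested. Shares of all genes were counted for the background and normalization settings only. With the replicate number as a block the diet in null females had 2 called, and other counts were 19 for the diet in WT females, 8 for the female interaction, 4 and 11 for the female genotypes, 0 and 0 for the male diets, 20 and 19 for the male genotypes, 20 for sex, 11 for sex by diet and 8 for sex by genotype. The numbers did not pair the mice: in WT females the correlations of same-numbered mice ran from -0.21 to 0.38.

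Leaving out each mouse gave 9 to 20 for the diet in WT females, 0 to 3 in null females, 0 to 0 in WT males and 0 to 1 in null males. It gave 5 to 10 for the female interaction, 1 to 5 and 7 to 12 for the female genotypes, 19 to 22 and 18 to 22 for the male genotypes, 17 to 22 for sex, 4 to 13 for sex by diet and 5 to 12 for sex by genotype. Of 1042 values of single members under other settings 898 kept direction and call, 134 lost the call, 8 gained it and 2 turned. Of 1388 with a mouse left out, 1258 kept both, 125 lost the call and 5 gained it.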
